A study of Mus musculus with 6 samples.

Results

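A set of 10 genes of insulin signalling and glucose uptake was followed by RNA sequencing of inguinal white fat, which lies under the skin, in Mpst knockout and wild-type mice on a high-fat diet. The 10 genes were taken by symbol from 24984 listed genes, and cover the insulin receptor (Insr), its substrates (Irs1, Irs2), the regulatory subunit of PI3-kinase (Pik3r1), the Akt kinases (Akt1, Akt2), Akt targets (Foxo1, Tbc1d4), the glucose carrier GLUT4 (Slc2a4) and an insulin-repressed enzyme (Pck1). There were 3 libraries labelled Mpst knockout with a high-fat diet (HFD), called Mpst KO HFD, and they were set against 3 libraries labelled WT with the same diet, called WT HFD. MPST is a sulfurtransferase, one of the enzymes that make hydrogen sulfide, and the study concerns its part in obesity. The labels do not state the form of the Mpst allele, the strain, sex, age or length of the diet, and with no group on another diet the values say nothing of the diet itself. The replicates are numbered, but no label says that each is a separate animal, and the p-values cover only variation among these libraries, part or all of which may be technical.

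Insulin binds its receptor, a tyrosine kinase, which phosphorylates the receptor substrates, and these recruit PI3-kinase. The lipid that PI3-kinase makes brings Akt to the membrane, where Akt phosphorylates the GTPase-activating protein encoded by Tbc1d4 and so releases GLUT4 vesicles to the cell surface, and also phosphorylates the transcription factor FOXO1, which then leaves the nucleus. Fat cells take up glucose through GLUT4 after a meal, and in the fasted state they use PCK1 to make the glycerol backbone on which fatty acids are re-esterified. Much of this pathway works by phosphorylation and by movement of proteins within the cell, which transcript levels do not measure.

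The promoters of Pck1, the member with the largest difference and the widest spread, and of the receptor substrates Irs1 and Irs2 are shown because these are the members with a match to the cAMP, insulin response or E-box motifs. Each run covers 250 bases before and 50 bases after the RefSeq start in GRCm38.p6, read 5′ to 3′ on the gene's own strand. They lie at chr2:173152823-173153122 (Pck1, plus strand), chr1:82291390-82291689 (Irs1, minus strand) and chr8:11008880-11009179 (Irs2, minus strand). Capitals mark matches to 4 motifs searched on each strand, TNACGTCA (cAMP response element), TGTTTTG (insulin response core), GTAAACA (FOXO core) and CACGTG (E-box).
Pck1: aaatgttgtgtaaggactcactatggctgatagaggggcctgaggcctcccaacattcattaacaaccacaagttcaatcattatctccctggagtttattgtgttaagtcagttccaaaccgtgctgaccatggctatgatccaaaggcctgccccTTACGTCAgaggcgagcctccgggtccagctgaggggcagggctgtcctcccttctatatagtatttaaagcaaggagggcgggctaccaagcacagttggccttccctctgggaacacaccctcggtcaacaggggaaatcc
Irs1: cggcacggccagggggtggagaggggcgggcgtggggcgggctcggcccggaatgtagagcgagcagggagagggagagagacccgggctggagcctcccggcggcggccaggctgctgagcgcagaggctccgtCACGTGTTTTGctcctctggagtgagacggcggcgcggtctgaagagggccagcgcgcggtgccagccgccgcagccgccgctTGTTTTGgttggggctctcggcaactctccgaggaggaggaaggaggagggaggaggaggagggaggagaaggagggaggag
Irs2: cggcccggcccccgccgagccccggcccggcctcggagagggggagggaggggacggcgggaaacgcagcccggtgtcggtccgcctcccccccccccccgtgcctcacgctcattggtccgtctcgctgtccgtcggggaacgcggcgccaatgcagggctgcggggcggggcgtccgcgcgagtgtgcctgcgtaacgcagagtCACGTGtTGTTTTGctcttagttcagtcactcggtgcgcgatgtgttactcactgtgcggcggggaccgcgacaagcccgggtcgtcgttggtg

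The Pck1 run held TTACGTCA beginning at position −93, where 0 is the first base of the RefSeq gene, and TNACGTCA occurred in 2.93% of 32851 promoters of the same length. The Irs2 run held CACGTG at −44 and TGTTTTG at −37. The Irs1 run held CACGTG at −115, TGTTTTG at −111, which shares bases with that E-box, and TGTTTTG again at −32. Over all promoters TGTTTTG occurred in 6.28%, CACGTG in 7.15% and GTAAACA in 3.65%. GTAAACA had no match in these 3 runs and 1 among the members, in a promoter of Akt1, on the opposite strand at −161. Of the 10 genes 8 had an entry in the promoter table, and Insr and Slc2a4 are named only. These matches are letters in a window and carry no measurement of binding.

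Every library matched its genotype label, with 3, 10 and 9 Mpst counts in Mpst KO HFD libraries 1, 2 and 3, against 1358, 1394 and 1624 in WT HFD libraries 1, 2 and 3. Total counts ran from 8054560 to 22458630 in Mpst KO HFD and from 17394489 to 21576075 in WT HFD, and the shallowest library, Mpst KO HFD 1, still held at least 253 counts for each of the 10 genes. Adipocyte markers were abundant in all libraries, summing to 58557 to 70601 CPM (a gene's count scaled to a fixed library size, after TMM normalisation) in Mpst KO HFD and 63526 to 79196 CPM in WT HFD over 12 genes, of which 1 was lower and none higher. The lower gene was Lipe, the hormone-sensitive lipase. Of the 12 adipocyte markers 8 had a log2 fold change below 0 and 4 above, with a median of −0.30. The groups did not overlap for 4 that were lower (33.3%) and 2 that were higher (16.7%), beside 15.5% and 17.8% of all tested genes. The 12 macrophage markers summed to 1787 to 1926 CPM in Mpst KO HFD and 505 to 1034 CPM in WT HFD, with 7 higher and none lower. Skeletal muscle markers, 16 genes, summed to 121, 115 and 2913 CPM in Mpst KO HFD and 131, 1254 and 277 CPM in WT HFD, so that Mpst KO HFD 3 and WT HFD 2 stood apart. The 7 endothelial markers summed to 1053 to 1245 CPM in Mpst KO HFD and 904 to 959 CPM in WT HFD, with 1 called higher. All 7 had a log2 fold change above 0, and 4 were higher without overlap (57.1%, beside 17.8% of all tested genes). The 7 progenitor markers summed to 5154 to 6172 CPM in Mpst KO HFD and 4060 to 4810 CPM in WT HFD, with 1 called higher. They did not move together, with 4 log2 fold changes above 0 and 3 below, a median of 0.05 and a lowest value of −2.10. The 9 T and B cell markers summed to 17.4 to 35.1 CPM in Mpst KO HFD and 14.3 to 15.2 CPM in WT HFD. All 9 had a log2 fold change above 0, with a median of 0.82, and none was called. The 7 epithelial markers summed to at most 1.6 CPM in any library, with Krt14 at 0. Of 3 RNAs that mark library content, Malat1 stood at 196 to 349 CPM in Mpst KO HFD and 975.5 to 1778 CPM in WT HFD. The ribosomal precursor Rn45s stood at 2033 to 5822 CPM in Mpst KO HFD and 7380 to 33858 CPM in WT HFD. The other, Neat1, overlapped between the groups and differed least, with a log2 fold change of −0.45 beside a median of −2.31 for the 3. Of the 3 RNAs 1 was called lower. In bulk tissue, fewer cells of a type and less RNA per cell cannot be told apart.

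None of the 10 genes passed edgeR's quasi-likelihood test at an adjusted p under 0.05. Across all 14065 tested genes, 4.76% were called higher and 2.65% lower in Mpst KO HFD (669 and 373 genes). The split was 381 and 379 after a GC and length correction, and 1630 and 136 with libraries scaled to the adipocyte markers, which moved the median of all genes to 0.21, and 1026 and 877 with DESeq2. At an unadjusted p under 0.05 there were 2 of the 10, Slc2a4 lower and Pik3r1 higher, a share of 20.0% beside 27.6% of all tested genes. DESeq2 called 1 (Slc2a4) and limma-voom none. All 10 passed the filter on low counts. Slc2a4 was the only one whose 3 Mpst KO HFD libraries all lay below the 3 WT HFD libraries, and none lay wholly above, while 15.5% of tested genes lay wholly below and 17.8% wholly above. The median log2 fold change over the 10 was −0.12, with 3 above 0 and 7 below, against 0.0052 over all tested genes, and without WT HFD replicate 3 it was 0.06, with 8 above 0.

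**Figure D1:**
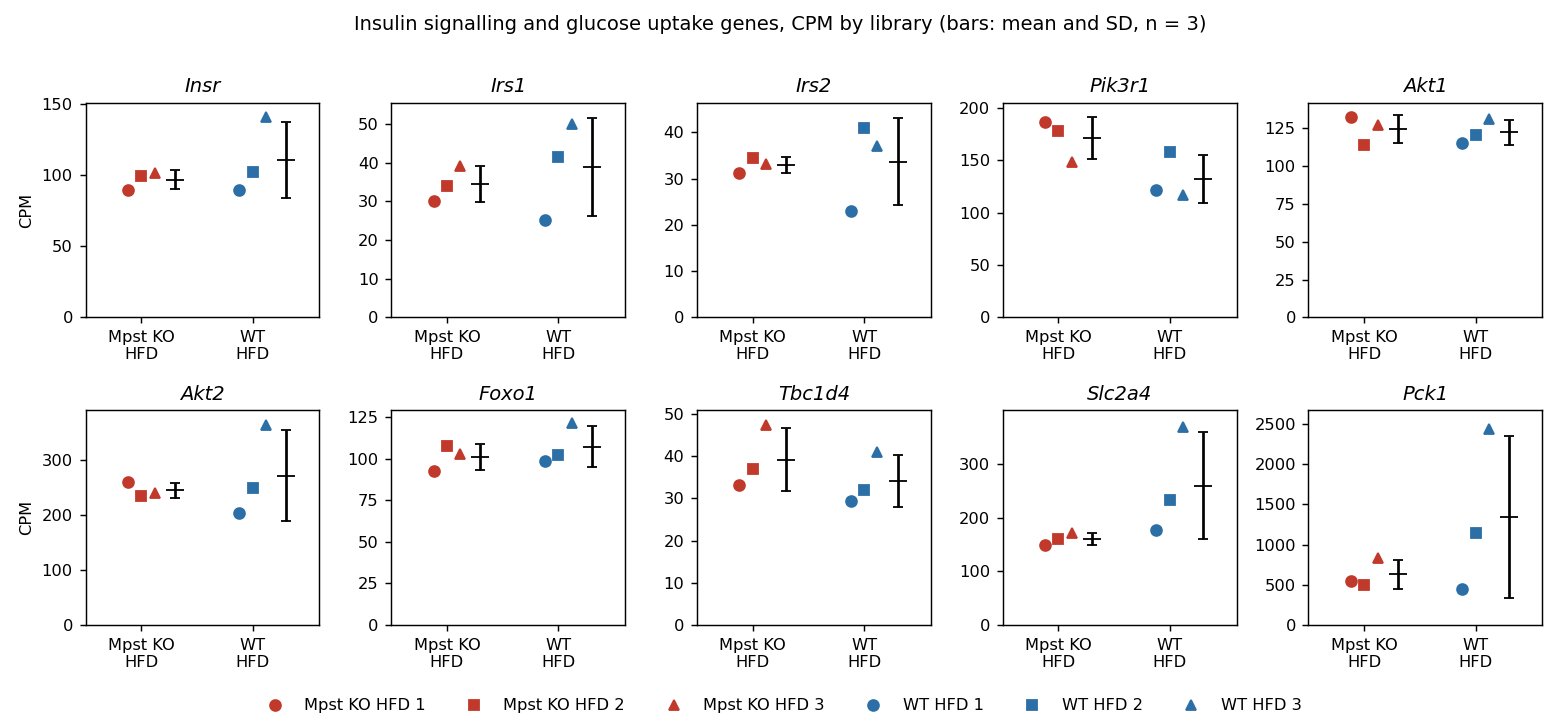
Each panel plots the CPM of 1 gene in the 3 Mpst KO HFD libraries (red) and the 3 WT HFD libraries (blue), with the mean and SD beside them. The Mpst KO HFD values of Slc2a4, at 148 to 171 CPM, lie below all WT HFD values, and the WT HFD values of Pck1 spread from 453 to 2434 CPM.

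Insr, the receptor tyrosine kinase that starts the signal, had 89.7, 99.3 and 101.9 CPM in Mpst KO HFD libraries and 89.3, 102.0 and 140.9 CPM in WT HFD libraries. The groups overlapped, and WT HFD 3 was the highest library. The log2 fold change came to −0.19 (SE 0.17, adjusted p = 0.504), with a 95% interval from −0.58 to 0.20. In GRCm38 the gene spans bases 3122061 to 3279617 of chromosome 8.

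Irs1, the receptor substrate best known from fat and muscle, had 30.2, 34.1 and 39.2 CPM in Mpst KO HFD and 25.3, 41.3 and 50.1 CPM in WT HFD. WT HFD 1 was the lowest and WT HFD 3 the highest library. Its log2 fold change was −0.17 (SE 0.23, adjusted p = 0.671, 95% interval −0.69 to 0.35). Exons of the antisense gene Gm9747 cover 30.9% of its exon bases, and since the library kit does not mark strand, its count is uncertain to that extent. Irs2, the substrate that the liver relies on and whose gene insulin represses, had 31.1, 34.4 and 33.2 CPM in Mpst KO HFD and 23.0, 41.0 and 37.1 CPM in WT HFD. Its means were 32.9 ± 1.67 CPM in Mpst KO HFD and 33.7 ± 9.47 CPM in WT HFD (SD, n = 3 each), with a log2 fold change of −0.03 (SE 0.20, adjusted p = 0.935, 95% interval −0.48 to 0.42). For both substrates the WT HFD libraries enclosed all Mpst KO HFD values.

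Pik3r1 encodes the p85-alpha regulatory subunit that docks PI3-kinase on the substrates, and in excess of the catalytic subunit it is known to hold the pathway back. It had 186, 178 and 149 CPM in Mpst KO HFD libraries, against 121, 158 and 117 CPM in WT HFD libraries. Only Mpst KO HFD 3 lay within the WT HFD range. The fold change on the log2 scale was 0.37 (SE 0.15, adjusted p = 0.160, unadjusted p = 0.0401), and the direction was the same in all 17 other fits. After the GC and length correction it was 0.17 (adjusted p = 0.582). With libraries scaled to the adipocyte markers it reached 0.59 (adjusted p = 0.0284), in a fit where the median of all tested genes moved to 0.21. With a replicate block it was 0.38 (adjusted p = 0.0495), though no label says that the numbers pair the libraries. Pik3r1 spans bases 101680563 to 101768217 of chromosome 13.

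Akt1, the Akt kinase linked mainly to growth, had 132, 114 and 127 CPM in Mpst KO HFD and 115, 120.0 and 131 CPM in WT HFD. The ranges of the groups nearly coincided. On the log2 scale the difference was 0.03 (SE 0.12, adjusted p = 0.908), with a 95% interval from −0.24 to 0.29. Akt2, the Akt kinase through which insulin acts on glucose uptake, had 259.8, 235 and 240.3 CPM in Mpst KO HFD and 204, 249 and 363.5 CPM in WT HFD. The Mpst KO HFD values sat inside the WT HFD range, whose top was WT HFD 3. This gave a log2 fold change of −0.15 (SE 0.20, adjusted p = 0.665, 95% interval −0.61 to 0.30).

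Foxo1 encodes the transcription factor that Akt drives out of the nucleus. It had 92.6, 107.5 and 103.0 CPM in Mpst KO HFD and 98.3, 102.1 and 121.4 CPM in WT HFD, which overlapped. The fitted log2 fold change was −0.09 (SE 0.13, adjusted p = 0.702, 95% interval −0.37 to 0.20). Antisense exons cover 7.78% of its exon bases, and 2.56% of those of Irs2. Tbc1d4, also called AS160, encodes the protein that holds GLUT4 vesicles back until Akt phosphorylates it. It had 33.2, 37.0 and 47.5 CPM in Mpst KO HFD and 29.4, 32.1 and 41.0 CPM in WT HFD. The log2 difference, Mpst KO HFD over WT HFD, was 0.20 (SE 0.18, adjusted p = 0.495, 95% interval −0.20 to 0.60). Without the libraries highest in muscle markers, Mpst KO HFD 3 and WT HFD 2, its log2 fold change was −0.0038 (adjusted p = 0.996).

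Slc2a4 encodes GLUT4, the carrier that insulin moves to the surface of fat and muscle cells. It had 148, 160.1 and 171 CPM in Mpst KO HFD libraries, against 177, 232 and 369 CPM in WT HFD libraries. The groups did not overlap, though Mpst KO HFD 3 and WT HFD 1 lay within 6 CPM of each other, and the WT HFD libraries differed 2.09-fold among themselves where the Mpst KO HFD libraries differed 1.15-fold. The means were 160 ± 11.1 CPM in Mpst KO HFD and 259 ± 99.3 CPM in WT HFD (SD, n = 3 each), a log2 fold change of −0.70 (SE 0.24, edgeR adjusted p = 0.104, unadjusted p = 0.0178, 95% interval −1.25 to −0.15). DESeq2 called it (−0.71, adjusted p = 0.0282), as did edgeR without WT HFD replicate 1 (−0.91, adjusted p = 0.0439). So did edgeR with a replicate block (−0.64, adjusted p = 0.0386), though no label says that the numbers pair the libraries. Over all alternatives the adjusted p ran from 0.0282 to 0.382. Without WT HFD replicate 3 the log2 fold change was −0.35 (adjusted p = 0.108). Without the libraries highest in muscle markers, Mpst KO HFD 3 and WT HFD 2, which leaves 2 libraries in each group, the log2 fold change was −0.82 (adjusted p = 0.382). Scaled to the adipocyte markers it was −0.50 (adjusted p = 0.198), in the fit whose median over all genes was 0.21. Slc2a4 spans bases 69942539 to 69948188 of chromosome 11.

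Pck1, the cytosolic phosphoenolpyruvate carboxykinase of glyceroneogenesis, which fasting and cAMP raise and insulin lowers, showed the largest difference in means of the 10 and the least precise one. It had 551, 500.5 and 834 CPM in Mpst KO HFD libraries, against 453, 1148 and 2434 CPM in WT HFD libraries. WT HFD 1 was the lowest of all 6 libraries, so the groups overlapped. The fitted difference was a log2 fold change of −1.10 (SE 0.55, adjusted p = 0.248), with a 95% interval from −2.41 to 0.21. The value rested on single libraries, since without WT HFD replicate 3 the log2 fold change was −0.34 (adjusted p = 0.650) and without WT HFD replicate 1 it was −1.50 (adjusted p = 0.0437). The WT HFD libraries differed 5.37-fold and the Mpst KO HFD libraries 1.67-fold. Among 9509 tested genes of at least 10 CPM on average, 41 others had a range at least as wide in WT HFD, and the median range was 1.28-fold. Pck1 spans bases 173153048 to 173159273 of chromosome 2.

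**Figure D2:**
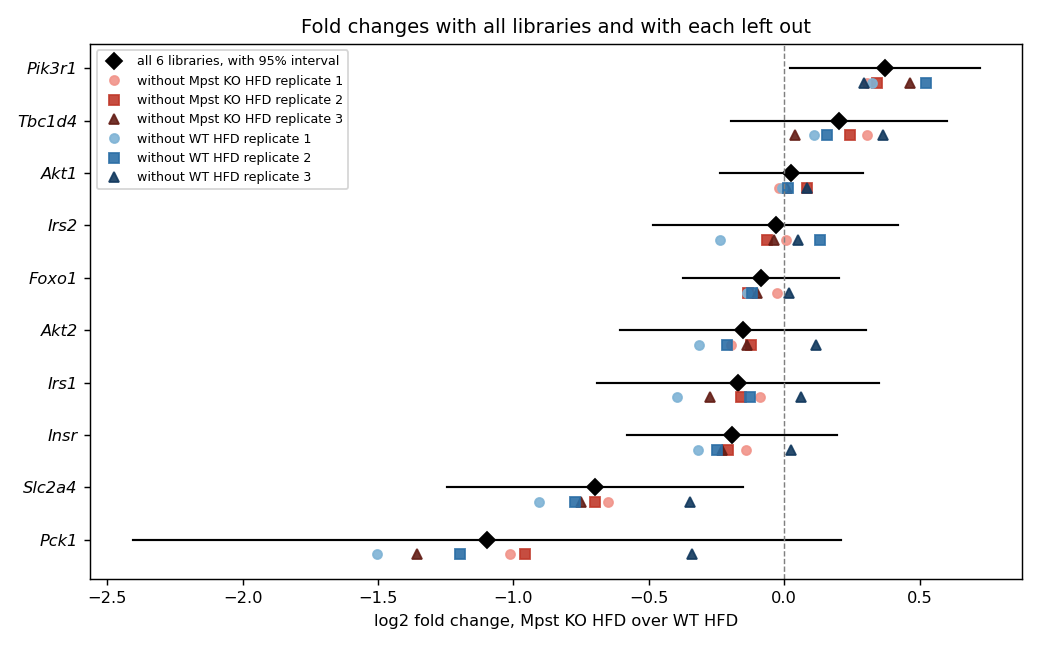
The black diamonds give the log2 fold change of each gene, Mpst KO HFD over WT HFD, with its 95% interval, and the coloured points below them the value with 1 library left out. Slc2a4 and Pck1 moved most with the WT HFD library left out, Slc2a4 between −0.91 and −0.35 and Pck1 between −1.50 and −0.34.

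The spread was wider within WT HFD for most of the 10 genes, as it was for most of all tested genes. On the log2 CPM scale 8 of the 10 varied more between WT HFD libraries than between Mpst KO HFD libraries, against 64.6% of all tested genes, and WT HFD 3 was the highest of the 6 libraries for 6 of the 10, against 23.1% of all tested genes. Those 6 were Insr, Irs1, Akt2, Foxo1, Slc2a4 and Pck1. WT HFD 3 also had the lowest macrophage sum of the WT HFD libraries, at 505 CPM against 1034 and 897 CPM, and the lowest adipocyte sum, at 63526 CPM against 76469 and 79196 CPM, and the part of either in the spread was not tested. The members share these libraries and are not independent replicates of that pattern.

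Compared per kilobase of exon, Pck1 was the most abundant of the 10, at 183 ± 52.4 CPM per kb in Mpst KO HFD and 392.3 ± 293.2 CPM per kb in WT HFD. Slc2a4 followed at 45.9 ± 3.20 CPM per kb in Mpst KO HFD and 74.6 ± 28.6 CPM per kb in WT HFD. Akt2 stood at 34.4 ± 1.82 CPM per kb in Mpst KO HFD and 38.2 ± 11.5 CPM per kb in WT HFD, and Akt1 at 30.3 ± 2.30 CPM per kb in Mpst KO HFD and 29.8 ± 1.99 CPM per kb in WT HFD. Akt2 was above Akt1 on this scale in all 6 libraries, narrowly in WT HFD 1, and the means differed by more than either SD in Mpst KO HFD and by less than the SD of Akt2 in WT HFD. The lengths join the exons of all annotated transcripts of a gene, and the annotation behind the counts is not given. Ranks between genes depend on these lengths, which are the same for all 6 libraries. Pik3r1, Foxo1 and Insr lay between 7.05 and 17.0 CPM per kb as group means. Irs2, Tbc1d4 and Irs1 were lowest, at group means of 3.77 to 5.33 CPM per kb, and Irs2 (5.21 ± 0.264) and Tbc1d4 (5.11 ± 0.964) did not differ beyond their spread in Mpst KO HFD.

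Genes with patterns like those of Slc2a4 and Pck1 were found by the root mean square difference of log2 CPM, each relative to the gene's own WT HFD mean, over the 6 libraries and 9508 candidates. Closest to Slc2a4 were Ivd, isovaleryl-CoA dehydrogenase of leucine breakdown (difference 0.071, on the log2 scale), Tns2, a tensin of focal adhesions (0.079), and Sox6, a transcription factor (0.094). Ivd had 189.9, 197 and 208 CPM in Mpst KO HFD and 236, 303 and 426 CPM in WT HFD. Closest to Pck1 were Slc1a3, a glutamate carrier (0.187), Fam13a (0.197) and Celsr2, a cadherin of cell polarity (0.269). Fam13a had 27.9, 35.8 and 63.5 CPM in Mpst KO HFD and 26.8, 72.0 and 172 CPM in WT HFD, the same order of WT HFD libraries as Pck1. None of these 6 genes passed edgeR's test (adjusted p 0.0687 to 0.371), and neither did Slc2a4 or Pck1. The 6 genes were chosen by likeness over these same libraries. Their shared order of libraries and similar test results therefore follow largely from the choice. Slc2a4 and Pck1 differed from each other by 0.464.

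**Figure D3:**
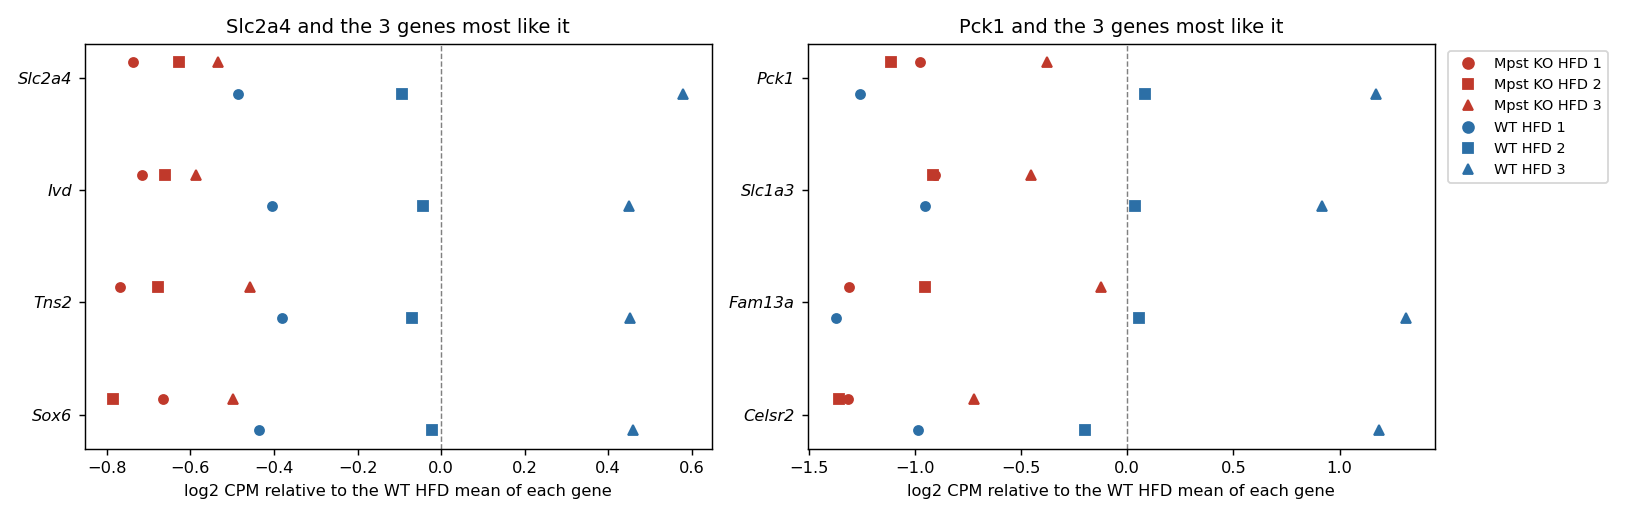
Points give log2 CPM relative to the WT HFD mean of each gene, for Slc2a4 (left) and Pck1 (right) with the 3 genes most like each. In all 8 genes WT HFD 3 is the highest library and WT HFD 1 the lowest of its group.

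Around the 10 members, 119 further genes of the pathway were listed by role, of which 116 were tested. Of these 7 rose and 3 fell (6.03% and 2.59%), close to the 4.76% and 2.65% of all tested genes, and their median log2 fold change was 0.01. The groups did not overlap in 25 that were higher (21.6%) and 17 that were lower (14.7%), near the 17.8% and 15.5% of all tested genes. All 10 calls were lost without WT HFD replicate 2, without each Mpst KO HFD replicate in turn and without the libraries highest in muscle markers. Those fits called at most 74 genes higher and 8 lower over all tested genes, from 669 and 373. Another 5 fits aside, without WT HFD replicate 1 the calls of Crk, Inpp5d, Rab10, Irs3 and Nfia were lost, and 438 and 193 of the calls over all genes were kept. Without WT HFD replicate 3 all 10 calls were kept, in a fit that called 1471 genes higher and 1199 lower over all tested genes. Each of the 10 kept its direction in every fit.

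**Figure D4:**
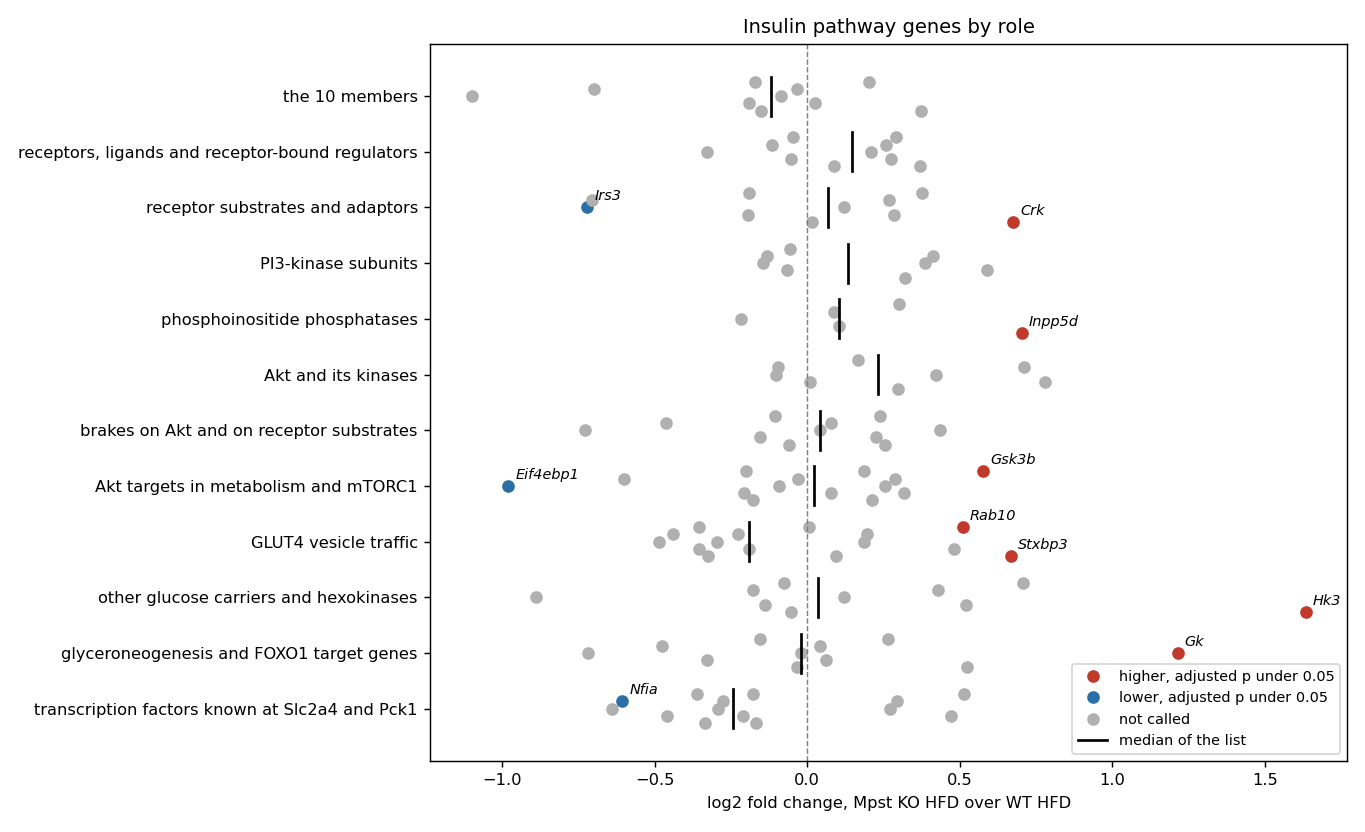
Each point is the log2 fold change of 1 tested gene, Mpst KO HFD over WT HFD, by role in the pathway, with called genes coloured and named and the median of each list as a bar. The called genes run from Eif4ebp1 at −0.98 to Hk3 at 1.63, and none of the 10 members is among them.

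Among receptor substrates and adaptors, Irs3, a short substrate of rodent fat cells, fell to 46.3 ± 3.20 CPM in Mpst KO HFD, against 76.4 ± 13.7 CPM in WT HFD (SD, n = 3 each; log2 fold change −0.72, SE 0.15, adjusted p = 0.0306). Its libraries had 43.4, 49.7 and 45.8 CPM in Mpst KO HFD and 88.3, 79.6 and 61.4 CPM in WT HFD, and its call was lost with libraries scaled to the adipocyte markers (−0.52, adjusted p = 0.0587). Crk, an SH2 and SH3 adaptor, rose to 121 ± 10.2 CPM in Mpst KO HFD, against 75.8 ± 11.4 CPM in WT HFD (0.67, adjusted p = 0.0300), a call lost after the GC and length correction (0.47, adjusted p = 0.0654). The other 8 of the list did not pass. In this list 4 of the 10 had an unadjusted p under 0.05 (40.0%), beside 27.6% of all tested genes. Of 10 receptors, ligands and receptor-bound regulators none passed, and 1 of the 10 had an unadjusted p under 0.05, beside 27.6% of all tested genes. This was Ptpn1, the tyrosine phosphatase PTP1B that dephosphorylates the receptor, with 52.6 ± 5.43 CPM in Mpst KO HFD and 40.7 ± 0.981 CPM in WT HFD (0.37, adjusted p = 0.0857).

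No further PI3-kinase subunit of 8 passed, the smallest p being that of Pik3cd, the leukocyte catalytic subunit, with 22.0 ± 4.77 CPM in Mpst KO HFD and 14.7 ± 1.55 CPM in WT HFD (0.59, adjusted p = 0.0754). Of 5 phosphoinositide phosphatases Inpp5d, the SHIP1 phosphatase of blood cells, rose to 32.4 ± 3.84 CPM in Mpst KO HFD, against 20.0 ± 1.88 CPM in WT HFD (0.70, adjusted p = 0.0270). The macrophage markers, summing to 1787 to 1926 CPM in Mpst KO HFD and 505 to 1034 CPM in WT HFD, moved the same way, and their part in it was not tested. None of 8 genes of Akt and its kinases passed. Pdpk1, the PDK1 kinase that activates Akt, had 36.0, 41.0 and 43.3 CPM in Mpst KO HFD, all above the 17.5, 20.1 and 32.4 CPM in WT HFD (0.78, adjusted p = 0.0632). Of 11 brakes on Akt and the substrates none passed, and Socs6, a suppressor of cytokine signalling, had the smallest p, with 20.0 ± 1.49 CPM in Mpst KO HFD and 14.7 ± 1.75 CPM in WT HFD (0.43, adjusted p = 0.0970).

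Among 14 Akt targets, Eif4ebp1 encodes 4E-BP1, the translation repressor that mTORC1 switches off. It had 222, 255 and 226 CPM in Mpst KO HFD libraries, against 443, 506 and 438 CPM in WT HFD libraries, a log2 fold change of −0.98 (SE 0.13, adjusted p = 0.0128). The groups lay far apart, with no value between 255 and 438 CPM. Gsk3b, the kinase that restrains glycogen synthase until Akt inhibits it, rose to 73.7 ± 3.11 CPM in Mpst KO HFD, against 49.4 ± 4.40 CPM in WT HFD (0.58, adjusted p = 0.0274), a call lost after the GC and length correction (0.40, adjusted p = 0.0982).

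In GLUT4 vesicle traffic the groups did not overlap for 12 of 15 genes, 5 higher and 7 lower, beside the 17.8% and 15.5% of all tested genes. An unadjusted p under 0.05 was reached by 6 of the 15 (40.0%), beside 27.6% of all tested genes. Stxbp3, the Munc18c protein that binds syntaxin 4, rose to 51.1 ± 4.62 CPM in Mpst KO HFD, against 32.1 ± 1.11 CPM in WT HFD (0.67, SE 0.12, adjusted p = 0.0191). Rab10, the small GTPase of GLUT4 vesicles that TBC1D4 restrains, rose to 151.9 ± 6.32 CPM in Mpst KO HFD, against 106.6 ± 8.37 CPM in WT HFD (0.51, SE 0.11, adjusted p = 0.0357), and an antisense gene covers 4.07% of its exon bases. Both calls were lost after the GC and length correction (0.39 and 0.34, adjusted p = 0.0889 and 0.100). Stx4a, the syntaxin partner of Stxbp3 at the plasma membrane, had 107, 108 and 101.5 CPM in Mpst KO HFD and 142, 134 and 128.5 CPM in WT HFD (−0.35, adjusted p = 0.0767). Vamp2, the vesicle SNARE, had 82.6, 85.6 and 86.7 CPM in Mpst KO HFD and 95.6, 107.8 and 122.4 CPM in WT HFD (−0.35, adjusted p = 0.107). Stx4a and Vamp2 were chosen after their values were seen, and neither passed the test.

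**Figure D5:**
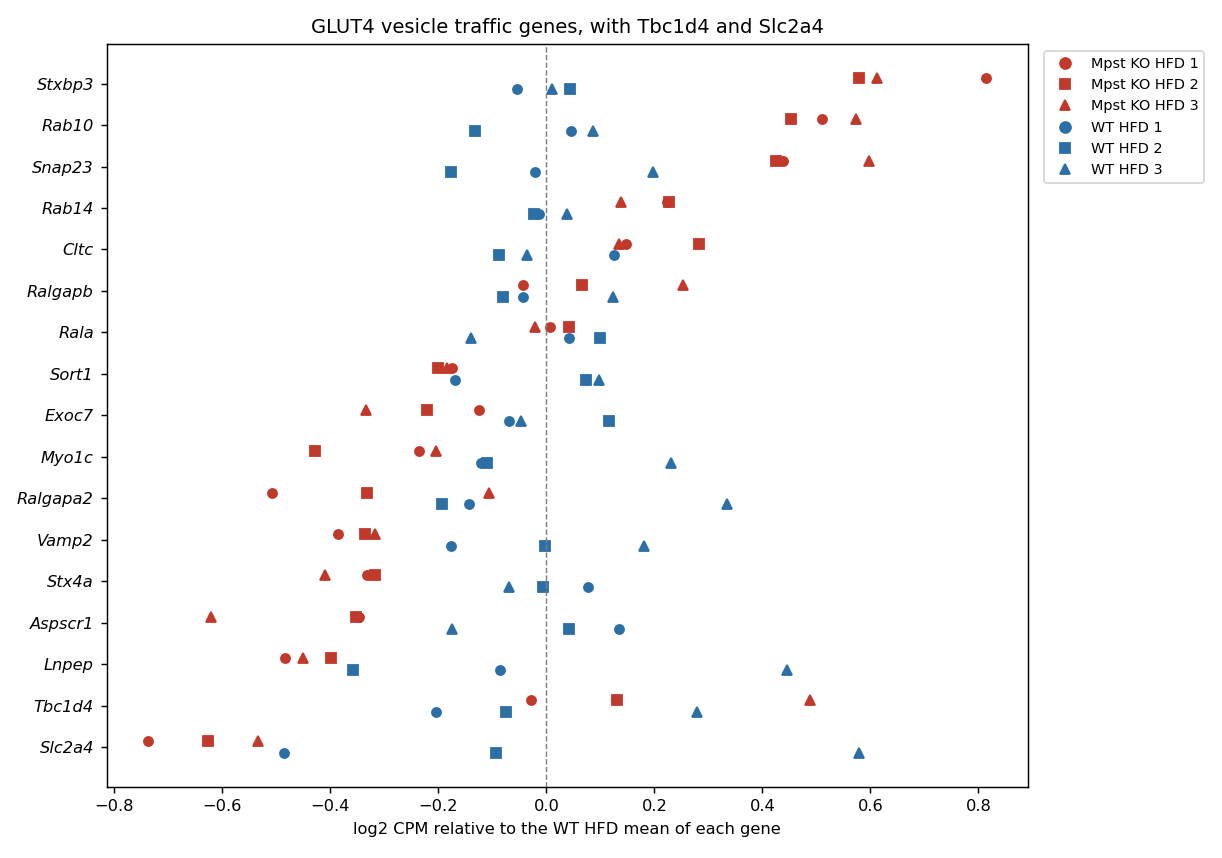
Points give log2 CPM relative to the WT HFD mean of each gene for 15 genes of GLUT4 vesicle traffic, with Tbc1d4 and Slc2a4 below. Stxbp3 and Rab10 at the top were called higher, and Slc2a4 at the bottom lies below all WT HFD libraries without passing the test.

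Of 10 tested glucose carriers and hexokinases beside Slc2a4, Hk3, the hexokinase of myeloid cells, rose to 18.7 ± 2.30 CPM in Mpst KO HFD, against 6.10 ± 2.77 CPM in WT HFD (1.63, adjusted p = 0.0284). The same macrophage sums stand beside it, and their part was not tested. Slc2a1, the carrier GLUT1 of basal uptake, had 16.3, 13.1 and 15.6 CPM in Mpst KO HFD and 14.1, 13.4 and 19.0 CPM in WT HFD (−0.05, adjusted p = 0.876), and Hk2, the insulin-sensitive hexokinase, had a log2 fold change of −0.08 (adjusted p = 0.799), both chosen after their values were seen. Of 11 tested genes of glyceroneogenesis and FOXO1 targets, Gk, the glycerol kinase that returns glycerol to triglyceride synthesis, rose to 20.3, 20.99 and 19.0 CPM in Mpst KO HFD libraries, against 9.81, 7.23 and 8.91 CPM in WT HFD libraries (1.21, SE 0.16, adjusted p = 0.0128). Of 14 transcription factors known at Slc2a4 and Pck1, Nfia, a nuclear factor I protein, fell to 98.3 ± 11.1 CPM in Mpst KO HFD, against 149.7 ± 15.4 CPM in WT HFD (−0.61, adjusted p = 0.0342), a call lost with libraries scaled to the adipocyte markers (−0.41, adjusted p = 0.115). Pparg, chosen after its value was seen, did not pass (−0.17, adjusted p = 0.406).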

How the data were processed

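RNA was measured in inguinal white adipose tissue, in 3 Mpst KO HFD and 3 WT HFD libraries. Per the labels' protocols, TRIzol-extracted total RNA was made into TruSeq RNA v2 libraries and read single-end at 75 bp on a NextSeq500. The deposited values are raw counts per gene symbol, not normalised. The submitters' processing notes name HISAT2 2.1.0, HTSeq 0.13.5, DESeq2 1.26 and build mm10. Neither the annotation nor the settings of the counter is given in the sources used here. Summary lines of the counter were left out. Reads in no feature were 8.85% to 14.7% of those in genes, in no feature or ambiguous. Reads shared with paralogs, pseudogenes or overlapping genes make single counts uncertain.

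Counts were fitted in R 4.3.3 with edgeR 4.0.16. The steps were filterByExpr (14065 genes kept), TMM scaling and the robust quasi-likelihood F test with no covariates. P-values were adjusted by Benjamini-Hochberg across all tested genes and called under 0.05. The SE is the log2 fold change over the root of F, and the 95% interval uses the fit's own degrees of freedom. The log2 CPM used a prior count of 2. The fit was also run on simulated counts with known changes. These had the same dispersion for every gene and both groups, so the wider spread within WT HFD was not covered. Positions, exon lengths and antisense exons came from GENCODE M21 (GRCm38, the assembly of mm10), and GC content and length covered 13905 tested genes. Promoters are credited to RefSeq, GRCm38.p6. No pair of libraries within a group was alike enough to be 1 library deposited again.

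Members and lists were chosen with earlier results of these data known. Named were the 10 members, every called gene of the lists, the gene with the smallest p in each list without a call, Mpst, and the 3 genes most like Slc2a4 and Pck1. Outside this rule, Stx4a, Vamp2, Slc2a1, Hk2, Pparg, Adrb3, Pnpla2, Bcl6, Gys1, Lipe, Krt14, Malat1, Neat1 and Rn45s were named after their values were seen. Stx4 was matched as Stx4a, and Slc2a4rg had no match. Alternatives were relative log expression and upper-quartile scaling, scaling to adipocyte markers, DESeq2 1.42.0, limma-voom (limma 3.58.1), other low-count filters, a replicate block, a fit without robust estimation, a correction for the trend on GC content and length, each library left out, and the libraries highest in muscle markers left out.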

Additional observations from a re-analysis of the deposited data

How the results depend on the processing

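Called genes, higher and lower in Mpst KO HFD, numbered 669 and 373 over all genes, 0 and 0 over the 10 members and 7 and 3 over the pathway lists. With DESeq2 they were 1026 and 877, 0 and 1 (Slc2a4), and 12 and 7. After the GC and length correction they were 381 and 379, 0 and 0, and 3 and 4. Scaled to the adipocyte markers, where the median of all genes moved to 0.21, they were 1630 and 136, 1 (Pik3r1) and 0, and 20 and 1. Without the 2 libraries highest in muscle markers they were 0 and 1, 0 and 0, and 0 and 0. With a replicate block they were 1387 and 1289, 1 (Pik3r1, 0.38, adjusted p = 0.0495) and 1 (Slc2a4, −0.64, adjusted p = 0.0386), and 18 and 12. No label says that the numbers pair the libraries. Deviations of same-numbered libraries from their group means correlated at 0.171, −0.0994 and 0.303. Mpst KO HFD 1 and 3 went best with the WT HFD library of the same number, and Mpst KO HFD 2 with WT HFD 1 (0.357). With 3 libraries per group these correlations cannot settle whether the numbers mark pairs. With each library left out the counts ranged from 0 to 1471 and 1 to 1199 over all genes, stayed at 0 higher and ranged from 0 to 2 lower over the members (Slc2a4 and Pck1 without WT HFD replicate 1), and ranged from 0 to 19 and 0 to 7 over the lists. Fewer libraries were in those fits, yet the most calls over all genes, 1471 higher and 1199 lower, came without WT HFD replicate 3.

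Scaling to the adipocyte markers moved the median of all genes to 0.207, so a change of sign there comes from the scaling. Under it Insr stood at 0.0078, Irs1 at 0.036, Irs2 at 0.18, Akt2 at 0.049 and Foxo1 at 0.11, each still below that median. Under other settings some members changed sign near 0. Irs2 stood at 0.014 with limma-voom. Without the libraries highest in muscle markers Irs2 stood at 0.13, Akt1 at −0.0013 and Tbc1d4 at −0.0038. With each library left out the log2 fold change ranged from −0.32 to 0.026 for Insr, −0.40 to 0.063 for Irs1, −0.24 to 0.13 for Irs2, −0.020 to 0.086 for Akt1, −0.31 to 0.12 for Akt2 and −0.14 to 0.018 for Foxo1. Slc2a4, Pck1 and Pik3r1 kept their sign in all 17 alternatives. The cause of the changes of sign outside the adipocyte scaling was not tested.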

Other observations

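Some genes beside the 10 members had wide spreads among the WT HFD libraries, and they are given here as values chosen after they were seen. Adrb3, the beta-3 adrenergic receptor of fat cells, had 116, 116 and 276 CPM in Mpst KO HFD and 214, 419 and 709 CPM in WT HFD (log2 fold change −1.40, SE 0.51, edgeR adjusted p = 0.135). Adrb3 is also 1 of the 12 adipocyte markers used for the adipocyte scaling. Pnpla2, the first lipase of triglyceride breakdown and a FOXO1 target, had 1448, 1495 and 1723 CPM in Mpst KO HFD and 1851, 2545 and 3286 CPM in WT HFD, groups that did not overlap (−0.72, SE 0.22, adjusted p = 0.0750). Bcl6, a transcriptional repressor, had 54.9, 65.0 and 53.7 CPM in Mpst KO HFD and 75.9, 18.9 and 82.5 CPM in WT HFD, so that WT HFD 2 alone was low (−0.03, SE 0.49, adjusted p = 0.974). Gys1, the muscle-type glycogen synthase that Gsk3b restrains, had 98.3, 93.1 and 99.9 CPM in Mpst KO HFD and 120.2, 141.9 and 178.9 CPM in WT HFD, and missed the threshold narrowly (−0.60, SE 0.15, adjusted p = 0.0502).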
